A study of Caenorhabditis elegans with 8 samples.

Results

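The insulin signalling kinases and DAF-16 are 10 genes of *Caenorhabditis elegans* that lead from the insulin receptor to its transcription factor: daf-2, age-1, aap-1, pdk-1, akt-1, akt-2, sgk-1, daf-18, daf-16 and pptr-1. They were found by their gene symbol in the annotation of the array. All 10 were measured, each by 1 probe set (the group of probes that reads 1 transcript), out of 25478 genes with a probe set of their own. RNA was taken from synchronised, untreated worms at day 1 of their adult life, grown on *Escherichia coli* OP50. One group was 4 samples of wildtype (N2), and the other was 4 samples of mir-71(n4115), mutant in the gene for the microRNA miR-71. The labels give the mutants no other allele, and say nothing of how far the n4115 lesion extends.

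In this pathway an insulin-like peptide binds the receptor DAF-2 at the cell surface, and the lipid kinase AGE-1 then makes a membrane lipid that brings PDK-1 and the AKT kinases together. AKT-1 and AKT-2 phosphorylate the FOXO factor DAF-16 and keep it out of the nucleus. When signalling is low, DAF-16 enters the nucleus and turns on genes of stress resistance and long life. The lipid phosphatase DAF-18 and the phosphatase subunit PPTR-1 act against the kinases. A microRNA can lower the mRNAs it binds, but need not. pdk-1 and age-1 have been reported elsewhere as targets of mir-71, which is known for lengthening life in the worm.

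The values were log2 signals, so that a difference of 1 is a doubling, and the medians of the arrays lay between 5.20 and 5.30. Signals of the 10 genes were well above these medians, the lowest being 7.05 for akt-2 in wildtype replicate 3. In the labels the samples of a group carry the numbers 1 to 4, but nothing says that each was a separate culture. The p-values therefore measure the spread between these samples, which may be technical. Wildtype replicate 4 stood apart from its group. Over all probe sets it correlated at 0.961 to 0.976 with wildtype replicates 1 to 3 and at 0.986 to 0.993 with the mutants, while wildtype replicates 1 to 3 correlated at 0.990 to 0.993 with each other. It was kept where its label puts it, and the calls on members and lists are given with and without it. mir-71 has no named probe set, so the arrays give no check of the mutation.

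Over all 8 arrays none of the 10 genes passed the test. Counted by direction, 0 rose and 0 fell, where 0.616% of all genes rose and 1.22% fell (limma, adjusted p under 0.05). An unadjusted p under 0.05 was found for 2 of them, pdk-1 and pptr-1, and for 26.1% of all genes. In 8 of 10 the mutant mean was the higher, as it was in 51.8% of all genes. The median log2 difference of the 10 genes was 0.15, against 0.02 for all genes. The genes differed widely in size of difference, from 1.23 for pdk-1 to -0.09 for sgk-1, and the spread between wildtype arrays differed as widely.

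**Figure D1:**
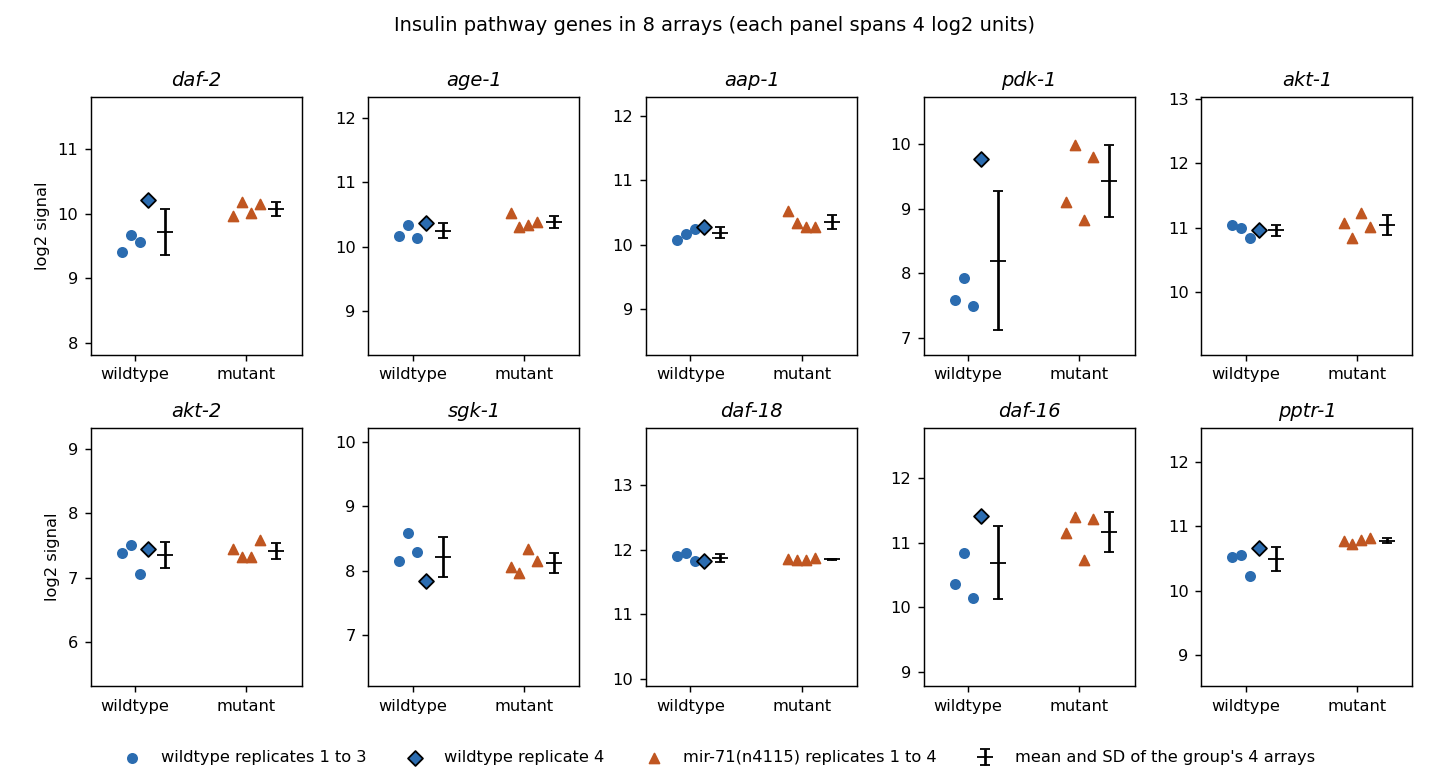
Log2 signal (vertical axis) of the 10 genes in each array, with wildtype replicates 1 to 3 as circles, wildtype replicate 4 as a diamond, mutants as triangles, and the mean with its SD (4 arrays per group) beside them. The diamond lies among the mutants for pdk-1 (9.78) and just above all of them for daf-2 (10.22) and daf-16 (11.42), while akt-1, akt-2, age-1, aap-1 and daf-18 show a narrow spread over all arrays.

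The receptor gene daf-2 read 9.41, 9.67, 9.56 and 10.22 in wildtype replicates 1 to 4. In mutant replicates 1 to 4 it read 9.97, 10.19, 10.01 and 10.15. All mutants were above wildtype replicates 1 to 3, and none was above replicate 4, so the groups overlapped. The log2 difference was 0.36 ± 0.18 (SE, n = 4 per group), with a 95% interval from -0.04 to 0.76 (limma, adjusted p = 0.218).

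age-1, the catalytic subunit of the phosphatidylinositol 3-kinase, ranged from 10.13 to 10.36 in the wildtype and from 10.31 to 10.52 in the mutants. The groups overlapped, and the difference was 0.14 ± 0.11 (SE; interval -0.11 to 0.39; limma, adjusted p = 0.428). Its adaptor subunit gene aap-1 ranged from 10.07 to 10.27 in the wildtype and from 10.27 to 10.52 in the mutants. The lowest mutant, replicate 4, lay just below wildtype replicate 4, and the other mutants lay above every wildtype array. The difference of aap-1 was 0.16 ± 0.11 (SE; interval -0.09 to 0.42; limma, adjusted p = 0.352). Both intervals exclude a rise of 1 log2 unit, a doubling, and neither excludes 0.

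pdk-1, the kinase that activates the AKT kinases, had the greatest difference of the 10 and also the greatest spread. It read 7.59, 7.93, 7.49 and 9.78 in wildtype replicates 1 to 4, and 9.11, 9.99, 8.83 and 9.80 in mutant replicates 1 to 4. Wildtype replicates 1 to 3 were all below the mutants, while replicate 4 lay between the mutants, above replicates 1 and 3 of these. The wildtype mean was 8.20 ± 1.07 (SD) and the mutant mean 9.43 ± 0.55 (SD). The 2.35-fold difference, 1.23 ± 0.50 on the log2 scale (SE; interval 0.11 to 2.35), missed the threshold (limma, adjusted p = 0.164).

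The AKT genes and sgk-1 encode related serine/threonine kinases that act below PDK-1. akt-1 ranged from 10.84 to 11.04 in the wildtype and from 10.84 to 11.23 in the mutants, and akt-2 from 7.05 to 7.50 and from 7.32 to 7.59. Both pairs of ranges overlapped. The difference of akt-1 was 0.08 ± 0.12 (SE; interval -0.19 to 0.35; limma, adjusted p = 0.688). The difference of akt-2 was 0.07 ± 0.13 (SE; interval -0.23 to 0.37; limma, adjusted p = 0.759).

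sgk-1 was one of only 2 of the 10 genes with a lower mutant mean. It read 8.16, 8.59, 8.29 and 7.83 in wildtype replicates 1 to 4 and 8.06, 7.96, 8.33 and 8.15 in mutant replicates 1 to 4. The groups overlapped, and here wildtype replicate 4 was the lowest of all arrays. The difference was -0.09 ± 0.17 (SE; interval -0.48 to 0.29; limma, adjusted p = 0.748).

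Whether these 3 kinases changed unequally was tested on the log2 ratio of each pair within an array, with 3 pairs compared. The akt-1 to akt-2 ratio differed by 0.01 between the groups (exact permutation test over 70 splits, 2-sided, p = 0.914, adjusted p = 0.914). The akt-1 to sgk-1 ratio differed by 0.17 (exact p = 0.343, adjusted p = 0.771) and the akt-2 to sgk-1 ratio by 0.16 (exact p = 0.514, adjusted p = 0.771). The smallest p this design allows is 0.0286. Without wildtype replicate 4 the akt-1 to sgk-1 ratio was 0.30 higher in the mutants (exact p = 0.0571, adjusted p = 0.171), so no unequal change was detected in either case.

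Of the genes that oppose the kinases, neither passed the test. daf-18, which encodes a lipid phosphatase, read 11.90, 11.95, 11.83 and 11.82 in wildtype replicates 1 to 4 and 11.85, 11.85, 11.84 and 11.87 in the mutants. The mutant arrays lay within 0.03 of each other and inside the wildtype range. The difference was -0.02 ± 0.10 (SE; interval -0.24 to 0.20; limma, adjusted p = 0.886).

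pptr-1 encodes a regulatory subunit of protein phosphatase 2A, which dephosphorylates AKT-1. It read 10.52, 10.55, 10.23 and 10.66 in wildtype replicates 1 to 4 and 10.77, 10.73, 10.79 and 10.81 in the mutants. It was the single member whose 4 mutant arrays all exceeded its 4 wildtype arrays, a separation found in this direction in 1528 of all 25478 genes. The difference was 0.28 ± 0.12 (SE; interval 0.01 to 0.56; limma, adjusted p = 0.178). Wildtype replicate 4 was the highest wildtype array, 0.23 above the mean of the other wildtype arrays.

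daf-16, the FOXO factor on which the pathway converges, read 10.37, 10.85, 10.14 and 11.42 in wildtype replicates 1 to 4. The mutants read 11.15, 11.40, 10.74 and 11.37. Wildtype replicate 4 was above every mutant, and mutant replicate 3 was below wildtype replicate 2. The difference was 0.47 ± 0.28 (SE; interval -0.15 to 1.09; limma, adjusted p = 0.291). One probe set cannot separate the isoforms of daf-16, which are made from different promoters.

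For the members that differed most, the call depended on wildtype replicate 4. That array was above wildtype replicates 1 to 3 in 6 of the 10 genes, as it was in 37.6% of all genes. The excess over their mean was 2.11 for pdk-1, 0.96 for daf-16 and 0.68 for daf-2. From the same base the mutant means lay at 1.76, 0.71 and 0.53, so replicate 4 exceeded the mutant mean in all 3. For sgk-1 replicate 4 lay 0.51 below the other wildtype arrays and the mutants 0.22 below them.

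**Figure D2:**
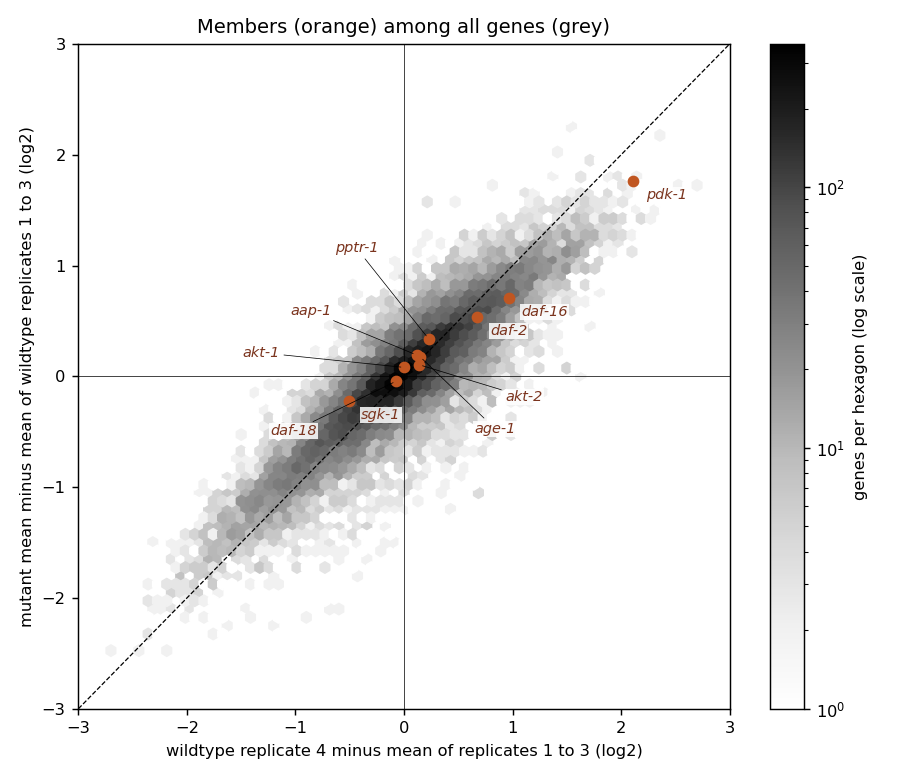
For each gene, wildtype replicate 4 minus the mean of wildtype replicates 1 to 3 (horizontal axis, log2) against the mutant mean minus the same mean (vertical axis, log2). The 10 members are orange points and all genes are grey hexagons shaded by their number, with a dashed line where replicate 4 equals the mutant mean: pdk-1 (2.11, 1.76), daf-16 (0.96, 0.71) and daf-2 (0.68, 0.53) lie just under it, within the cloud of all genes. The axes share the mean of wildtype replicates 1 to 3, so the slope of the cloud is in part built in.

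Without wildtype replicate 4, 4 members rose and 0 fell. Of all genes 19.1% rose and 17.8% fell in that fit, in which the array nearest to the mutants is gone. pdk-1 was 3.39-fold higher, by 1.76 ± 0.28 on the log2 scale (SE; 3 against 4 arrays; limma, adjusted p = 0.00152). daf-2 was 1.45-fold higher (limma, adjusted p = 0.00660), daf-16 1.64-fold (adjusted p = 0.0273) and pptr-1 1.27-fold (adjusted p = 0.0447). The other members differed by -0.22 to 0.19, with adjusted p from 0.207 to 0.764. The mutants were then all above the wildtype arrays for daf-2, aap-1, pdk-1 and pptr-1, where 22.6% of all genes were separated in that direction. daf-16 was not separated, since mutant replicate 3 lay below wildtype replicate 2.

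Gene length moved with these differences. Across the array, genes with a long annotated span (first to last base, introns included) were on the whole higher in the mutants. The median log2 difference of protein-coding genes went from -0.20 in the quintile with the shortest spans to 0.25 in the quintile with the longest, and without replicate 4 from -0.26 to 0.35. Of the 10 members, 8 lie in the longest quintile, which starts at 4351 bases, with aap-1 (2341 bases) in the third and akt-1 (3941 bases) in the fourth. In that quintile 47.2% of genes rose and 6.22% fell without replicate 4, against 4 risen and 0 fallen among the 8 members there. daf-2 spans 46333 bases and daf-16 26206, the greatest of the members.

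**Figure D3:**
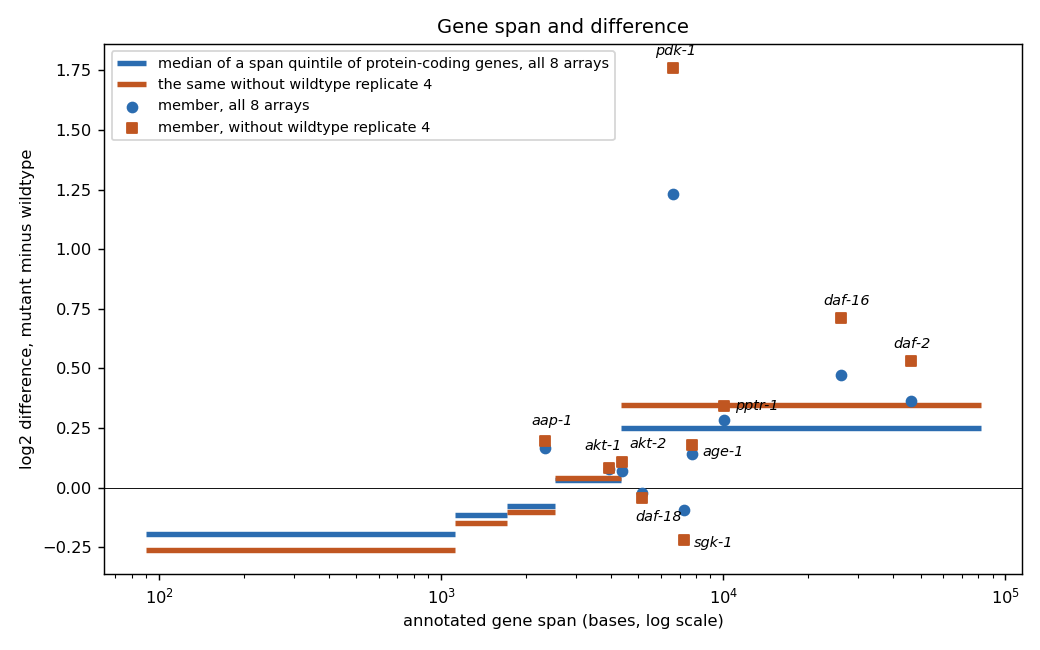
Annotated gene span in bases (horizontal log axis) against the log2 difference, mutant minus wildtype (vertical axis), over all 8 arrays in blue and without wildtype replicate 4 in orange. Points are the 10 members and bars are medians of span quintiles of protein-coding genes: the bars climb from -0.20 to 0.25 over all arrays, pptr-1 (0.28) lies near the last bar, and pdk-1 (1.23) far above it.

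With the trend of signal with span taken out of each array, the median difference of the members turned from 0.15 to -0.10, beside -0.02 for all protein-coding genes. Over all 8 arrays 0 members rose and 0 fell after this step, where 0.596% of protein-coding genes rose and 1.68% fell. The difference of pdk-1 was 0.94 ± 0.41 (SE; limma, adjusted p = 0.174). That of daf-2 turned to -0.29 ± 0.13 (SE; adjusted p = 0.187), that of daf-16 to -0.09 (adjusted p = 0.720) and that of pptr-1 to -0.10 (adjusted p = 0.638). With replicate 4 left out as well, 1 member rose and 3 fell, where 17.4% of protein-coding genes rose and 24.5% fell. pdk-1 rose by 1.36 ± 0.25 (SE; limma, adjusted p = 0.00280), while sgk-1 fell by 0.65 (adjusted p = 0.00681), daf-2 fell by 0.39 (adjusted p = 0.0135) and daf-18 fell by 0.35 (adjusted p = 0.0129). The directions of daf-2, age-1, akt-1, akt-2, daf-16 and pptr-1 thus depend on this step, and those of pdk-1, aap-1, sgk-1 and daf-18 were the same in all 4 of these fits. The part of gene length in these differences was not tested further.

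**Figure D4:**
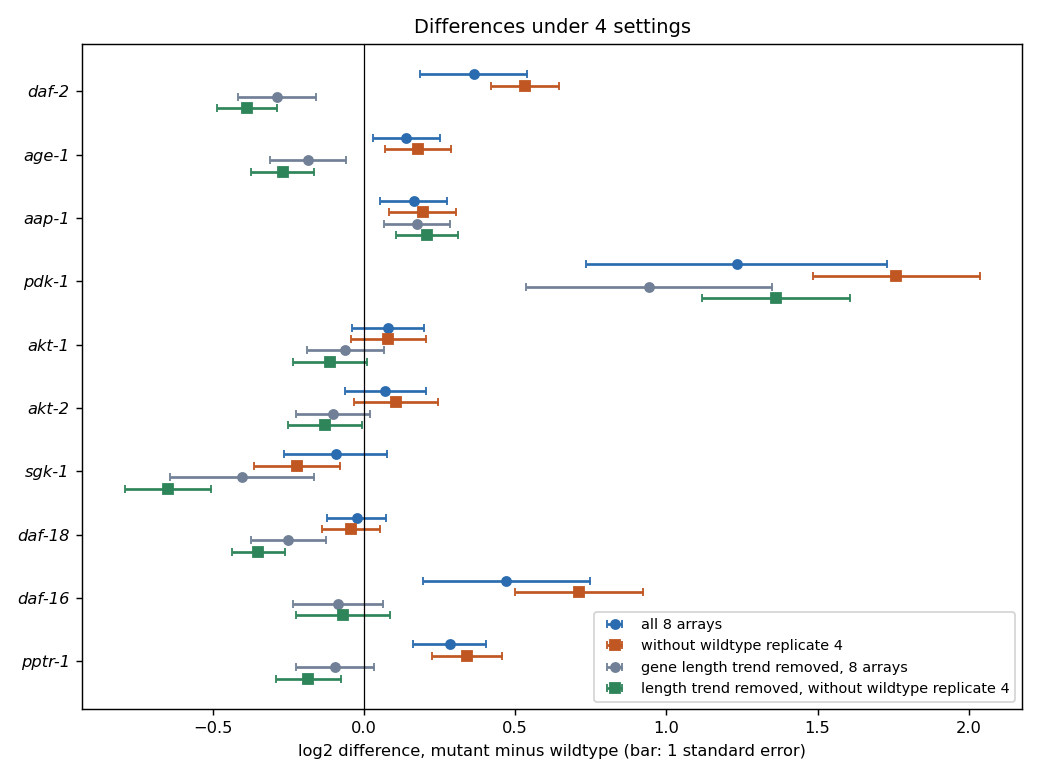
Log2 difference, mutant minus wildtype (horizontal axis), of the 10 genes with 1 standard error, over all 8 arrays (blue), without wildtype replicate 4 (orange), with the gene length trend removed (grey) and with both (green). pdk-1 stays between 0.94 and 1.76, while daf-2 goes from 0.53 to -0.39.

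The mutant arrays also differed among themselves. pdk-1 and daf-16 were lowest in mutant replicate 3, followed by replicates 1, 4 and 2. For daf-2 replicates 4 and 2 were again the highest. Other members had other orders: akt-1 and sgk-1 were highest in replicate 3 and lowest in 2, and age-1 and aap-1 were highest in replicate 1. The mean level of 14 oocyte markers ran in the order of pdk-1 and daf-16, at 11.23, 11.32, 11.43 and 11.43 in mutant replicates 3, 1, 4 and 2, with 11.45 in wildtype replicate 4 and 10.96 to 11.17 in the other wildtype arrays. By limma 0 of these markers passed, and 0 had an unadjusted p under 0.05, beside 26.1% of all genes. The means of the moulting markers (6.93, 7.10, 7.25 and 7.27) and of the body wall muscle markers (9.90, 9.998, 10.27 and 10.33) ran in that order of mutant arrays too. Those of the epidermis, neuron, intestine and sperm markers ran in other orders. For the neuron markers only mutant replicates 4 and 2 changed places, at 8.349 and 8.343. The oocyte means of these replicates were close as well, at 11.426 and 11.432. Whole worms hold many tissues, and in such RNA more cells of a type and more RNA per cell cannot be told apart.

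Other tissue markers moved with wildtype replicate 4 as well. The mean level of 14 moulting markers was 6.15 to 6.40 in wildtype replicates 1 to 3, 7.16 in replicate 4 and 6.93 to 7.27 in the mutants, and 2 of the 14, noah-1 and noah-2, rose. For 12 epidermis markers, with 0 called and 7 at an unadjusted p under 0.05, the same means were 8.78 to 9.004, 9.40 and 9.34 to 9.41. Those of 12 neuron markers (0 called, 4 with an unadjusted p under 0.05) were 7.91 to 7.96, 8.33 and 8.26 to 8.35. Those of 10 body wall muscle markers (0 called, 3 with an unadjusted p under 0.05) were 9.77 to 9.86, 10.27 and 9.90 to 10.33. The mean of the 11 intestine markers measured stayed between 9.54 and 9.62, with 0 called and 4 with an unadjusted p under 0.05, but its members differed in both directions. ges-1, a gut esterase, differed by -1.05 (limma, adjusted p = 0.0534) and ifo-1 by 0.85 (adjusted p = 0.0745). Sperm markers went another way: 6 of 12 fell, and their mean level was 5.68 to 5.78 in wildtype replicates 1 to 3, 5.598 in replicate 4 and 4.65 to 5.00 in the mutants. Without replicate 4, 3 oocyte, 9 moulting, 8 epidermis, 6 neuron, 6 muscle and 3 intestine markers rose. In that fit 8 sperm and 2 intestine markers fell, as did 1 each of the epidermis, neuron and muscle markers. The shares of all genes there were 19.1% risen and 17.8% fallen. Over all 8 arrays 0.616% of all genes rose, 1.22% fell and 26.1% had an unadjusted p under 0.05 (limma). The part of these tissues in the differences of the insulin pathway genes was not tested.

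The 21 neighbours of the pathway include adaptors, protein phosphatase 2A subunits and genes of the TOR kinase complexes. Genes of other kinds are in the list too, among them aak-2, gsk-3, vps-34, asna-1, ddl-1 and ddl-2. Over all 8 arrays 0 of them rose and 0 fell (limma), and 7 had an unadjusted p under 0.05, beside 26.1% of all genes. Their median difference was 0.17, and the mean level of the list was 9.65 to 9.77 in wildtype replicates 1 to 3, 9.98 in replicate 4 and 9.90 to 9.96 in the mutants. The lowest p were those of mlst-8, a subunit of the TOR complexes, and aak-2, the catalytic subunit of AMP-activated kinase. mlst-8 differed by 0.45 ± 0.15 (SE; limma, adjusted p = 0.120) and its mutants were all above the wildtype. aak-2 read 7.69 to 8.25 in wildtype replicates 1 to 3, 9.73 in replicate 4 and 9.12 to 9.81 in the mutants, a difference of 1.06 ± 0.40 (SE; adjusted p = 0.149). Without replicate 4, by limma 9 of the 21 rose and 3 fell, with mlst-8 (0.57, adjusted p = 0.00638) and aak-2 (1.51, adjusted p = 5.97e-04) among the risen. Of all genes 19.1% rose and 17.8% fell in the fit without replicate 4.

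Among 24 measured regulators and partners of DAF-16, 0 rose and 0 fell over all 8 arrays (limma), and the median was 0.12. Of the 24, 3 had an unadjusted p under 0.05, beside 26.1% of all genes. jnk-1, a stress kinase that acts on DAF-16, differed by -0.57 (adjusted p = 0.168) and bar-1, a beta-catenin that binds DAF-16, by 0.47 (adjusted p = 0.186). Without replicate 4, by limma 8 of the 24 rose, bar-1 among them (0.63, adjusted p = 0.0193), and 2 fell, jnk-1 among them (-0.73, adjusted p = 0.0251). In that fit 19.1% of all genes rose and 17.8% fell. Both jnk-1 and bar-1 had replicate 4 on the side of the mutants, at 5.73 for jnk-1 beside 6.33 to 6.39 in the other wildtype arrays.

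Genes that DAF-16 is reported to raise did not move together. Of 19 measured, 2 fell and 0 rose, where 1.22% of all genes fell, and the list's median was 0.10. An unadjusted p under 0.05 was found for 5 of the 19, beside 26.1% of all genes (limma). sod-3, a mitochondrial superoxide dismutase widely used as a readout of DAF-16, read 5.91, 6.12, 5.83 and 5.38 in wildtype replicates 1 to 4 and 4.66, 5.02, 4.59 and 5.13 in the mutants. Every mutant was below every wildtype array, a separation found in this direction in 1277 of all 25478 genes. Replicate 4 was the lowest of the wildtype. The difference was -0.96 ± 0.19 (SE; limma, adjusted p = 0.0423), and -1.103 without replicate 4 (adjusted p = 0.00105). With the length trend removed it was -0.85 (adjusted p = 0.0453).

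lys-7, a lysozyme of the intestine, read 10.22, 10.65, 10.78 and 9.13 in wildtype replicates 1 to 4 and 8.52, 8.43, 8.23 and 8.47 in the mutants. It was also lower in every mutant. The difference was -1.78 ± 0.32 (SE; limma, adjusted p = 0.0316). It was -2.14 without replicate 4 (adjusted p = 6.87e-05) and -1.61 with the length trend removed (adjusted p = 0.0265). Neither call on these genes was kept when any array other than wildtype replicate 4 was left out: the list then had 0 fallen, as it had with the replicate number as a block. Without replicate 4, 3 of the 19 rose and 5 fell, where 19.1% of all genes rose and 17.8% fell. mtl-1, a metallothionein that DAF-16 also raises, stood at a dim 2.91 in the wildtype and 3.01 in the mutants (adjusted p = 0.857), and is named here after its value was seen.

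Of 12 measured genes that DAF-16 is reported to lower, 0 rose and 0 fell (limma), and the median was -0.06. Of the 12, 3 had an unadjusted p under 0.05, beside 26.1% of all genes. dod-22 differed by 0.39 ± 0.11 (SE; adjusted p = 0.0974) with all mutants higher, and dod-17 by -0.65 ± 0.20 (SE; adjusted p = 0.110) with all mutants lower. Without replicate 4, by limma 1 of the 12 rose, dod-22 (0.38, adjusted p = 0.0256), and 5 fell, dod-17 among them (-0.76, adjusted p = 0.0147). In that fit 19.1% of all genes rose and 17.8% fell.

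**Figure D5:**
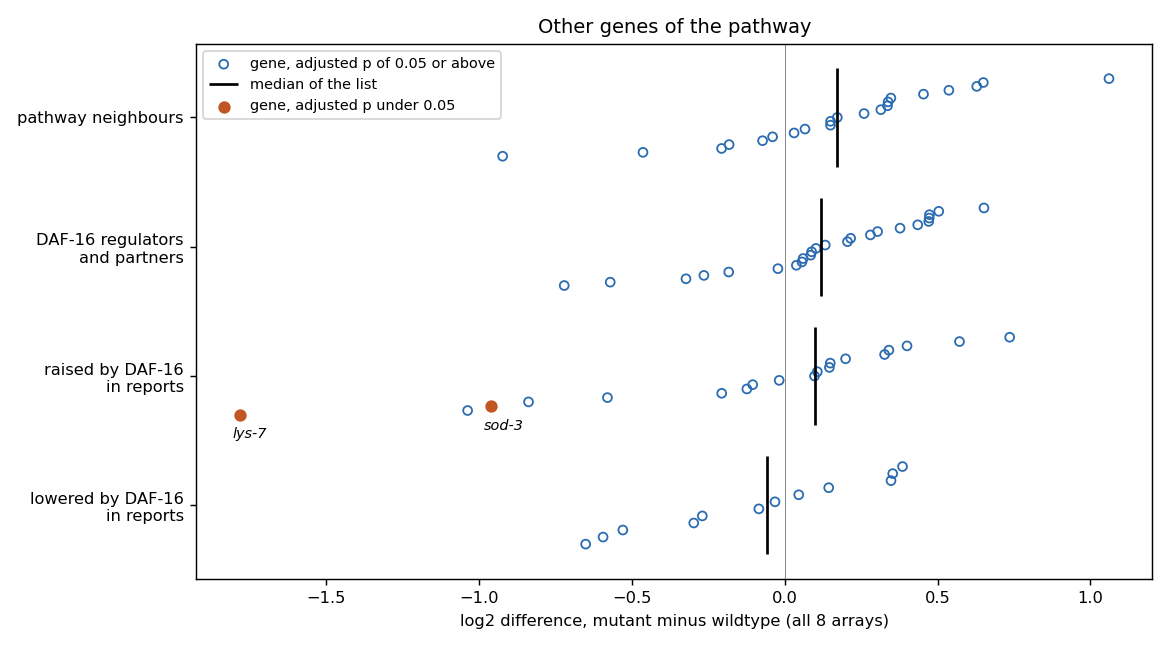
Log2 difference, mutant minus wildtype over all 8 arrays (horizontal axis), for each measured gene of 4 lists: pathway neighbours (21 genes), DAF-16 regulators and partners (24), and genes that DAF-16 is reported to raise (19) or to lower (12). Filled points passed the test (sod-3 at -0.96 and lys-7 at -1.78), open points did not, and the vertical lines are the medians, from -0.06 to 0.17.

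Genes with a pattern over the 8 arrays most like that of a member were found by the root mean square difference of their log2 values, each centred on its own mean. Nearest to daf-2 were ztf-3, mep-1 and ubr-5, at 0.05 each. Nearest to pdk-1 were sel-7, cog-1 and nhr-41, at 0.11 to 0.12, with differences of 1.20 to 1.23 and adjusted p from 0.158 to 0.175. Nearest to daf-16 were H40L08.1, Y54F10AM.8 and ppw-2, at 0.06 each. Nearest to akt-1 were C34E10.9, trpl-5 and Y44A6C.1, at 0.07 each. Only genes with a range of at least 0.5 were searched, and akt-1 itself spanned only 0.38. Genes as flat as akt-1 were thus left out, and some of those may be more like it. None of these 12 genes passed the test over all 8 arrays (limma). They were chosen for values like those of members that did not pass, so this result was largely set by the choice.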

How the data were processed

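The authors deposited 1 table of log2 signals for 29317 probe sets on 8 Affymetrix 1-colour arrays. Partek 6.6 and RMA, a method of background correction, normalisation between arrays and summary over probes, were used per the submitters' processing notes. Neither settings nor genome build is given in the sources used here. The log2 scale was read from the values (1.15 to 13.45). No further normalisation was applied, so a shift common to most genes would be hidden, and detection above background was not judged.

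Of the rows, 26192 are listed in the platform annotation and entered the test, and 25546 of these have 1 symbol. Symbols were updated through the Entrez identifier to RefSeq WBcel235 (25495 matched), which also gave gene spans. The brightest probe set stood for a gene.

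Groups were compared with limma 3.58.1 in R 4.3.3 (lmFit, eBayes, 2-sided, no covariate), with Benjamini-Hochberg adjustment over all 26192 probe sets and a threshold of 0.05. Scripts were tested on simulated data with 200 changed probe sets. The fit called 0% of those changed by 0.5 log2 units, 50.5% at 1 and 91% at 2. A small difference that was not called is therefore no sign that a gene was unchanged. The span trend was removed per array by loess (span 0.3) over protein-coding genes, 18800 in all. Alternatives were other normalisations, variance models, filters, thresholds, array weights, the replicate number as a block and each array left out.

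The members and lists were chosen with earlier results of these data known. The text names all members, up to 2 risen and 2 fallen genes of each pathway list (or the 2 of lowest p), and the 3 genes most like daf-2, pdk-1, akt-1 and daf-16 with a range of at least 0.5. No sequence is printed.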

Additional observations from a re-analysis of the deposited data

Results flagged for a closer look

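The genes looked at were the members, the genes next to them, mtl-1, the 12 genes of like pattern and the 2 of lowest p in each list. In 12 groups of 4 arrays among them, 1 array lay apart from the other 3 by a gap that, as a share of the group's whole range, was above Dixon's critical value for 4 samples. None of the 10 insulin pathway genes was among them. The greatest such share for a member was 0.807, for pdk-1 in wildtype replicate 4. Wildtype replicate 4 was the array apart for jnk-1 (0.917) and for the markers unc-10 (0.940), semo-1 (0.890), mlc-1 (0.882), mlc-2 (0.878) and mex-3 (0.850). The same array was apart for cog-1 (0.853) and nhr-41 (0.838), which were chosen for their likeness to pdk-1. It was apart as well for use-1 (0.853) and Y110A7A.21 (0.896), next to aap-1. Wildtype replicate 3 was apart for ceh-90 (0.901), next to akt-2. Wildtype replicate 1 was apart for the sperm marker msp-78 (0.878). Chance gives such a gap in about 5% of groups, counting any of the 4 arrays, so the chance for 1 given array is lower. Over all 25478 genes wildtype replicate 4 was apart in 6.37%, and each of the other 7 arrays in 0.573% to 2.30%. The 12 groups were not set against the number looked at, so whether they exceed these shares was not tested.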

How the results depend on the processing

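Over the 19 alternatives run for each member, pdk-1 stayed between 0.94 and 1.81 on the log2 scale, aap-1 between 0.11 and 0.21, and both kept their direction in all of them. Without 1 array the members risen numbered 0 to 4 and fallen 0 to 0, the 4 without wildtype replicate 4. Array weights gave 4 members risen: pdk-1 (1.81), daf-16 (0.73), daf-2 (0.55) and pptr-1 (0.29). With the length trend removed and wildtype replicate 4 left out, 1 member rose and 3 fell, and daf-2 turned from 0.36 to -0.39. In that fit 17.4% of protein-coding genes rose and 24.5% fell. The other alternatives called no member.

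All genes risen numbered 157 and fallen 312. They were 5419 and 5047 with array weights, 9 and 9 unmoderated, 9 and 14 at an adjusted p of 0.01, 3280 and 4608 without the length trend and replicate 4, and 100 risen with trend and robust. Without 1 array they ranged from 15 to 4873 and from 23 to 4528, the most without wildtype replicate 4.

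Array weights gave 12 risen and 3 fallen pathway neighbours, 10 and 3 DAF-16 regulators, 3 and 5 genes raised by DAF-16, and 1 and 5 genes lowered by it. Of all 25478 genes 5419 rose and 5047 fell under these weights. Without the length trend and replicate 4 the 4 lists had 5 and 5, 3 and 3, 3 and 6, and 2 and 4. There 17.4% of protein-coding genes rose and 24.5% fell. The 2 fallen genes raised by DAF-16 became 1 with trend and robust, and 0 with the replicate block, unmoderated or at 0.01. Without 1 array, neighbours risen ranged from 0 to 9 and fallen from 0 to 3, regulators from 0 to 8 and 0 to 2, raised genes from 0 to 3 and 0 to 5, and lowered genes from 0 to 1 and 0 to 5. The causes were not tested. The 3 kinase pair ratios passed under no alternative run.

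The labels do not say that the replicate numbers pair the samples, and the main fit did not pair them. Of the same-numbered pairs of deviations from the group means, 3 of 4 correlated above 0.1 (0.19, -0.11, 0.37 and 0.27). As a hint from the data, 3 of 4 mutants correlated best with the wildtype array of their own number. With the replicate block 107 genes rose and 238 fell, and 0 members did. The adjusted p by limma was then 0.0820 for pdk-1 and 0.122 for daf-16. It was lower than in the main fit for daf-2, pdk-1, akt-2 and daf-16, and higher for the other members. The 4 arrays per group limit the precision.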

Other observations

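The genes next to the members in the annotation were looked at after their values were seen. Of 20 neighbours 10 differed in the direction of their member and 10 in the other. Over all 8 arrays 0 passed the test by limma, and 4 had an unadjusted p under 0.05, beside 26.1% of all genes. pdk-1 overlaps F21E9.2, which differed by -0.31 (limma, adjusted p = 0.261), where pdk-1 differed by 1.23. On its other side H42K12.3 differed by 1.12 (adjusted p = 0.0883), and by 1.41 without wildtype replicate 4. sgk-1 lies between W10G6.6, at -0.92 (adjusted p = 0.0845), and mua-6, at 0.44 (adjusted p = 0.155). Next to daf-2, Y55D5A.4 differed by -0.06 (adjusted p = 0.782) and cutl-25 by 0.02 (adjusted p = 0.962). Beside pptr-1, at 0.28, W08G11.1 differed by 0.45 (adjusted p = 0.225) and W08G11.3 by 0.27 (adjusted p = 0.352). Beside daf-16, at 0.47, F55A3.6 differed by 0.40 (adjusted p = 0.216) and B0205.4 by -0.03 (adjusted p = 0.921).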
